A study of Mus musculus with 12 samples.

Results

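Expression of the NMDA receptor subunit genes was described in dorsal hippocampal tissue of mice aged 7 days (P7). They are the 7 genes Grin1, Grin2a, Grin2b, Grin2c, Grin2d, Grin3a and Grin3b, chosen by symbol with earlier results of these data known, out of 52634 genes in the count table. Of these, 6 passed the filter on low counts that left 17631 genes for testing, and Grin3b did not.

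RNA sequencing was done on 12 libraries, each from tissue pooled from 4 mice. The genotypes were SERTfl/fl, the control with a floxed allele of the serotonin transporter gene Slc6a4, and SERTPyramid (SERTPyramid∆ in the sample titles), in which the study's title places the question in CA3 pyramidal neurons. Each genotype had 3 libraries labelled female and 3 labelled male, and no mice received a treatment according to the labels. The Cre driver, the Cre status of the controls and the litters behind each pool remain not given in the sources used here. The p-values measure only the spread between these pools.

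Library totals ran from 18747249 to 25522347 counts, so that 3 counts, the limit that a count of 0 allows, correspond to 0.118 to 0.160 CPM, the unit in which counts are scaled to a common library total. Slc6a4 itself had 0 to 17 counts per library, too few to check the genotype labels. The label for sex disagreed with Xist and Y-linked transcripts in 10 libraries, and of the 12 only control replicate 1 of each labelled sex matched. Every library stayed in its labelled group, and sex here is always that label. The summed level of 5 markers of CA1 pyramidal neurons was 718 to 825 CPM and that of 5 markers of dentate granule cells 291 to 393 CPM. The 3 markers of cerebellar granule cells together had 0.702 to 2.33 CPM, while 5 markers of the choroid plexus ranged from 25.4 to 2441 CPM. Summed levels of 5 thalamus markers were 178 to 199 CPM and those of 4 neocortex markers 147 to 170 CPM.

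NMDA receptors are glutamate-gated cation channels that pass calcium when glutamate, a co-agonist (glycine or D-serine) and depolarization of the membrane coincide. Each contains the obligatory GluN1 subunit, encoded by Grin1, together with GluN2 subunits (Grin2a to Grin2d), which bind glutamate and set the kinetics, or GluN3 subunits (Grin3a, Grin3b), which bind glycine. In the rodent forebrain Grin2b is known to dominate around birth, and Grin2a is known to increase over the first postnatal weeks, so that the ratio of Grin2a to Grin2b is used as a readout of synapse maturation.

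RefSeq promoter windows (GRCm38.p6) were at hand for 4 of the 7 genes: Grin1, Grin2c, Grin2d and Grin3b. Those of the most abundant subunit gene and of the pair with the lowest levels are printed as the sequence around the start sites whose RNA is counted below. Each runs 5′ to 3′ on the coding strand, from 250 bases before the start to the first 30 bases after it. Capitals mark the GC box (GGGCGG) and the E-box (CACGTG).
Grin1, chr2:25319158-25319437, minus strand: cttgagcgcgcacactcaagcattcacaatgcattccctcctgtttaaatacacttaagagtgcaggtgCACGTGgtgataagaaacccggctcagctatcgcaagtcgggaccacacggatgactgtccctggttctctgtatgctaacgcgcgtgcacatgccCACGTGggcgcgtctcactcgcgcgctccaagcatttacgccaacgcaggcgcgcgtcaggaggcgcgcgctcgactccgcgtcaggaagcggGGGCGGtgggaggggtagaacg
Grin2c, chr11:115267214-115267493, minus strand: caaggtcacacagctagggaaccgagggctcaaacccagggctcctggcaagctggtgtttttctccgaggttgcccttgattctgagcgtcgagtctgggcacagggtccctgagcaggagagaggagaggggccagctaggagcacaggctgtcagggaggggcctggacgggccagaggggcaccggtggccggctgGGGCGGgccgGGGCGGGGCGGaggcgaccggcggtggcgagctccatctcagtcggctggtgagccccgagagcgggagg
Grin3b, chr10:79970474-79970753, plus strand: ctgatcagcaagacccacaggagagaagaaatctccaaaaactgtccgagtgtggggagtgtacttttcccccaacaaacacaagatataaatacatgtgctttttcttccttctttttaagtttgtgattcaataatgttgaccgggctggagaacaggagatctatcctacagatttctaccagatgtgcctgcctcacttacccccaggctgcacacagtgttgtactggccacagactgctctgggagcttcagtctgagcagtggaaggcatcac
The Grin1 window held 1 GC box and 2 E-boxes, and the Grin2c window held 3 GC boxes and 0 E-boxes. Neither motif was in the windows of Grin2d or Grin3b. The Grin2d window (chr7:45866652-45866931, minus strand) lies inside the gene as annotated here, whose 5′ end is at 45878378. Its values therefore describe an internal start and not the outermost one. Searched on both strands over all 32851 windows of this length, a GC box was found in 34.7% and an E-box in 6.79%. The Grin1 window had a GC content of 60.4%, the Grin2c window 69.3%, the Grin2d window 55.0% and the Grin3b window 46.8%. The cAMP response element TGACGTCA (in 1.74% of all windows) and the RE1 half-site TTCAGCACC (0.335%) were in none of the 4 windows. In the printed windows GC boxes and E-boxes did not overlap each other, while neighbouring GC boxes of the Grin2c window share a base. A match is a run of letters only.

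Levels were compared between genes as CPM per kb of merged exons, averaged over the 12 libraries. Grin1 was the highest at 53.0 ± 2.36 CPM per kb, followed by Grin2b at 38.0 ± 4.85 (SD, n = 12). Grin2d stood at 13.6 ± 0.762 and Grin3a, whose product lowers calcium entry, at 13.3 ± 0.736 CPM per kb. Grin2a followed at 5.0 ± 0.588, Grin2c at 3.27 ± 0.475 and Grin3b at 0.101 ± 0.0390 CPM per kb. Every pair of neighbours in this order kept it in 12 of 12 libraries except Grin2d and Grin3a, which kept it in 7 of 12 and cannot be ranked. On this scale Grin1 was 1.39-fold above Grin2b, and Grin2b was 2.79-fold above Grin2d. The plot of levels per kb shows the 7 genes as separate bands apart from that pair, but Grin2a and Grin2c nearly touch. The lowest Grin2a value was 4.15 and the highest Grin2c value 4.13 CPM per kb. Merged exons count every annotated exon once, so a gene with a long unused 3′ end or other unused exons is understated on this scale. Grin1 has 9700 bases of merged exons but a longest transcript of 4276 bases. For Grin2b these are 24842 and 24060 bases, and for Grin3a 12275 and 7491. The fold differences between genes therefore hold for this length only, and Grin1 may stand further above Grin2b.

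**Figure D1:**
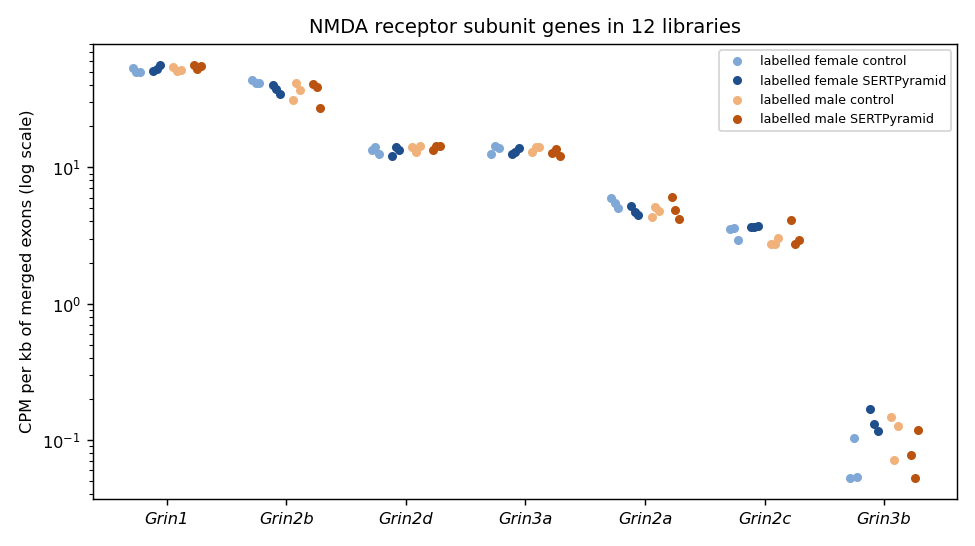
Level of each NMDA receptor subunit gene in CPM per kb of merged exons (log axis), with 1 point per library coloured by genotype and labelled sex. Grin1 and Grin2b lie at the top, Grin2d and Grin3a share a band near 13 CPM per kb, and Grin3b lies near 0.1 CPM per kb.

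Grin1 (ENSMUSG00000026959, chromosome 2, 25291181 to 25319187, minus strand, GRCm38) encodes the subunit present in every NMDA receptor. Controls labelled female had 517, 488 and 482 CPM, and SERTPyramid libraries labelled female had 495, 508 and 549.7 CPM. Controls labelled male had 527, 498 and 503 CPM, and SERTPyramid libraries labelled male had 549, 512 and 538 CPM. The groups overlapped in both labelled sexes, and the whole range over 12 libraries was 1.14-fold. This was the narrowest spread of the 7 genes, with a coefficient of variation of 4.45%.

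Grin2b (ENSMUSG00000030209, chromosome 6, 135713233 to 136173511, minus strand) encodes GluN2B, the GluN2 subunit that dominates in the newborn forebrain. Controls labelled female had 1086, 1039 and 1040.4 CPM, and SERTPyramid libraries labelled female had 991, 929.5 and 859.6 CPM. All 3 of the latter lay below all 3 controls. Controls labelled male had 774, 1033 and 924 CPM, and SERTPyramid libraries labelled male had 1012, 959 and 679.9 CPM. There the groups overlapped, and each genotype held 1 library far below the other two. The range over 12 libraries was 1.60-fold, with a coefficient of variation of 12.8%.

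Grin2a (ENSMUSG00000059003, chromosome 16, 9567898 to 9995560, minus strand) encodes GluN2A, the subunit of more mature synapses. Controls labelled female had 106, 97.4 and 90.7 CPM, and SERTPyramid libraries labelled female had 92.9, 84.1 and 79.6 CPM. Only SERTPyramid replicate 1 reached into the range of the controls. Controls labelled male had 78.0, 91.0 and 86.3 CPM, while SERTPyramid libraries labelled male ran more widely, at 109, 87.1 and 74.4 CPM. The last group contained both the highest and the lowest of the 12 values.

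Grin2c (ENSMUSG00000020734, chromosome 11, 115249169 to 115267243, minus strand) encodes GluN2C, known best from cerebellar granule cells and from astrocytes. Controls labelled female had 17.8, 17.9 and 14.7 CPM, and SERTPyramid libraries labelled female had 18.2, 18.2 and 18.7 CPM. The SERTPyramid libraries all lay higher, though the nearest values of the 2 groups were 17.9 and 18.2 CPM. Controls labelled male had 13.8, 13.7 and 15.3 CPM, and SERTPyramid libraries labelled male had 20.8, 13.8 and 14.8 CPM. Replicate 1 of the last group stood alone at the top.

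Grin2d (ENSMUSG00000002771, chromosome 7, 45831883 to 45878378, minus strand) encodes GluN2D, which is prominent early in life and in interneurons. Its values lay between 81.0 and 95.7 CPM in all 12 libraries, and group means ran from 87.9 to 93.6 CPM. Grin3a (ENSMUSG00000039579, chromosome 4, 49661611 to 49845744, minus strand), a GluN3 gene expressed most in the early postnatal brain, lay between 149 and 177 CPM, with group means of 158 to 168 CPM. For both genes the genotypes overlapped in each labelled sex. Grin3b (ENSMUSG00000035745, chromosome 10, 79970715 to 79977190, plus strand), known from motor neurons, had 4 to 14 counts per library. Controls labelled female had 0.174, 0.340 and 0.175 CPM and SERTPyramid libraries labelled female had 0.552, 0.427 and 0.381 CPM. These did not overlap, as was so for 18.8% of tested genes in this comparison, and they rest on 4, 8 and 4 against 14, 9 and 9 counts. With labelled-male values of 0.172 to 0.480 CPM in both genotypes, all these levels lie close to the limit of 3 counts and Grin3b was not tested.

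**Figure D2:**
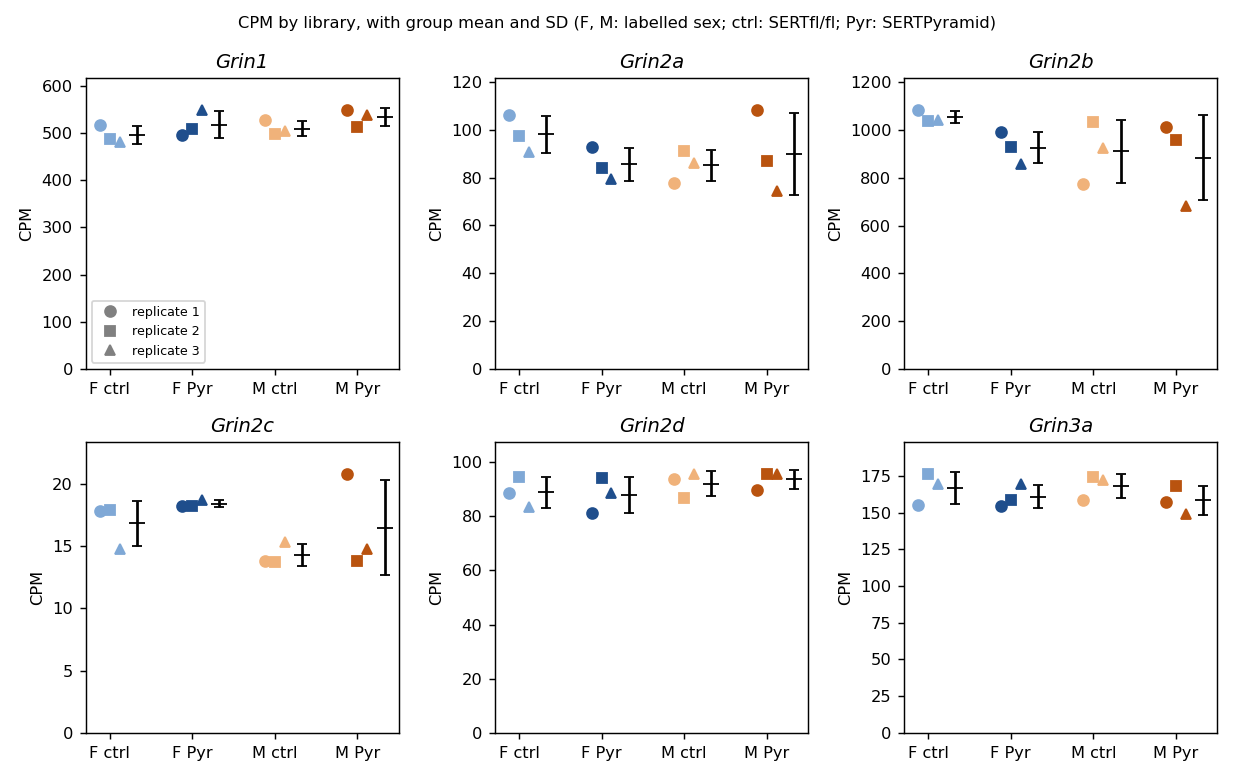
CPM of the 6 tested subunit genes in each library (circles, squares and triangles are replicates 1, 2 and 3), with the group mean and SD as a bar beside the points and axes that start at 0. Grin2b of SERTPyramid libraries labelled female (859.6 to 991 CPM) lies below the controls labelled female (1039 to 1086 CPM), and Grin1, Grin2d and Grin3a overlap in every comparison of genotypes.

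Reads of some members cannot be told apart from those of neighbours, because the library kit does not mark strand. Grin1 shares 1307 bases of exon with the antisense gene Grin1os, which is 13.5% of the merged exons of Grin1 and 45.2% of those of Grin1os. Grin1os had 1.25 to 4.70 CPM against at least 482 CPM for Grin1. Grin3b shares 1059 bases, 32.1% of its exons, with Tmem259 on the other strand, which had 164 to 201 CPM. Grin2d shares 643 bases with the antisense gene Gm45441 (2.17 to 3.16 CPM). The counting of a read that fits both genes remains not given in the sources used here.

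The first comparison asked whether subunit levels differ with genotype in libraries labelled female. In the fit of all 12 libraries 0 of the 6 tested members passed an adjusted p of 0.05 by edgeR's quasi-likelihood test, as did 0% of all 17631 genes. At an unadjusted p under 0.05 there were 0 of 6 members against 8.04% of all genes, and DESeq2 and limma voom called 0 members too. Group means of Grin2b were 1055 ± 26.6 CPM in controls and 927 ± 65.7 CPM in SERTPyramid libraries (SD, n = 3). The log2 fold change by edgeR was -0.20 ± 0.16 (SE), with an adjusted p of 0.794. It was -0.10 with 1 surrogate variable, -0.13 with Y-linked expression as a covariate and -0.12 with offsets for transcript length. Grin2a averaged 98.1 ± 7.77 CPM in controls and 85.5 ± 6.80 CPM in SERTPyramid libraries (SD, n = 3). Its log2 fold change by edgeR was -0.21 ± 0.13 (SE), with an adjusted p of 0.728. Their 95% intervals, -0.56 to 0.15 for Grin2b and -0.50 to 0.07 for Grin2a, both include 0. The log2 fold changes of the other 4 were 0.05 for Grin1, 0.11 for Grin2c, -0.03 for Grin2d and -0.07 for Grin3a. Counted by groups that do not overlap, Grin2b was lower and Grin2c higher among the 6 tested genes, against 18.8% of all tested genes (6.99% lower and 11.8% higher).

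The same question among libraries labelled male gave smaller differences for Grin2b and Grin2a. Group means of Grin2b were 910.4 ± 130 CPM in controls and 884 ± 179 CPM in SERTPyramid libraries (SD, n = 3), which edgeR put at -0.05 ± 0.16 on the log2 scale (SE), with an adjusted p of 0.999. Grin2a averaged 85.1 ± 6.60 CPM and 90.0 ± 17.2 CPM (SD, n = 3), which edgeR put at 0.07 ± 0.13 on the log2 scale (SE), with an adjusted p of 0.999. The other log2 fold changes were 0.05 for Grin1, 0.19 for Grin2c, 0.01 for Grin2d and -0.10 for Grin3a. Of the 6 members 0 passed the adjusted threshold (0% of all genes did), 0 had an unadjusted p under 0.05 (3.16% of all genes), and 0 had groups that did not overlap (6.75% of all genes). Without SERTPyramid replicate 3, the library lowest in Grin2b, the Grin2b value turned to 0.11, and without control replicate 2 it was 0.04. Without SERTPyramid replicate 1 the values of Grin2a and Grin2c turned to -0.08 and -0.01.

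The difference between the labelled sexes in these genotype effects was tested directly. The log2 interaction was -0.15 ± 0.22 for Grin2b and -0.28 ± 0.18 for Grin2a (SE; adjusted p = 0.999 for each by edgeR). With 1 library left out these ran from -0.32 (without SERTPyramid replicate 3 labelled male) to -0.04 (without control replicate 1 labelled male) for Grin2b, and from -0.41 to -0.13 (without SERTPyramid replicates 3 and 1 labelled male) for Grin2a. Without control replicate 1 of both labelled sexes they were -0.02 and -0.16, and with Y-linked expression as a covariate -0.02 and -0.16. Again 0 of 6 members and 0% of all genes passed the adjusted threshold, and 0 of 6 members had an unadjusted p under 0.05 against 4.45% of all genes. Averaged over the labelled sexes, the log2 fold change was -0.13 ± 0.11 for Grin2b, 0.15 ± 0.09 for Grin2c and -0.09 ± 0.05 for Grin3a (SE; adjusted p = 0.829, 0.765 and 0.758 by edgeR). Without SERTPyramid replicate 3 labelled male the Grin2b average was -0.05, without control replicate 2 labelled male it was -0.08, and without SERTPyramid replicate 1 labelled male the Grin2c average was 0.05. In that average 0 of 6 members passed the adjusted threshold (0% of all genes) and 0 had an unadjusted p under 0.05 (6.49% of all genes). A genotype effect of one labelled sex was therefore not shown to differ from that of the other for any subunit gene.

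When the 6 libraries labelled female were fitted alone, the estimates stayed where they were and the errors became smaller. Grin2b was called lower by edgeR at -0.20 ± 0.04 on the log2 scale (SE), with an adjusted p of 0.00575. It was the only called member of the 6, against 2.43% of 17108 genes called and 0.777% called lower. Grin2a had -0.21 ± 0.06 (SE; adjusted p = 0.0990 by edgeR). The remaining members had adjusted p of at least 0.581. The antisense gene Grin1os, at 2.26, 2.47 and 2.54 CPM in controls and 3.91, 3.37 and 3.77 CPM in SERTPyramid libraries, was called higher by edgeR at 0.59 ± 0.16 on the log2 scale (SE), with an adjusted p of 0.0492. That call was lost in 9 of the 12 alternative fits that gave an adjusted p, each left-out library among them (adjusted p = 0.101 to 0.173 by edgeR), while the log2 fold change stayed between 0.54 and 0.65. Among the libraries labelled male Grin1os ran from 1.25 to 4.70 CPM, and their own fit called 0 members and 0% of 17049 genes. The spread of Grin2b was larger there, with an SD of 130 and 179 CPM against 26.6 and 65.7 CPM among libraries labelled female, and the fit of all 12 libraries pools the spreads.

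The Grin2b call in the labelled-female fit held in 11 of 13 alternative fits. It was lost without SERTPyramid replicate 2 and with a correction for transcript length. Without SERTPyramid replicate 2 the log2 fold change was -0.20 with an adjusted p of 0.0550 by edgeR, where 0.78% of all genes were called. Without control replicate 1, the library whose sex-chromosome transcripts matched its label, it was -0.18 with an adjusted p of 0.0499 by edgeR (1.43% of all genes called). With offsets that removed each library's trend with GC content it was -0.17, with an adjusted p of 0.0109 by edgeR (1.68% of all genes called). With offsets for the trend with transcript length it was -0.12, with an adjusted p of 0.0664 by edgeR, and 0 members were called against 2.57% of all genes. DESeq2 called both Grin2b (adjusted p = 0.000569) and Grin2a (adjusted p = 0.0351) in these 6 libraries, against 3.02% of genes. Limma voom called Grin2b (adjusted p = 0.00222), against 2.89% of genes. The plot of genotype differences sets these 3 sets of intervals beside each other.

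**Figure D3:**
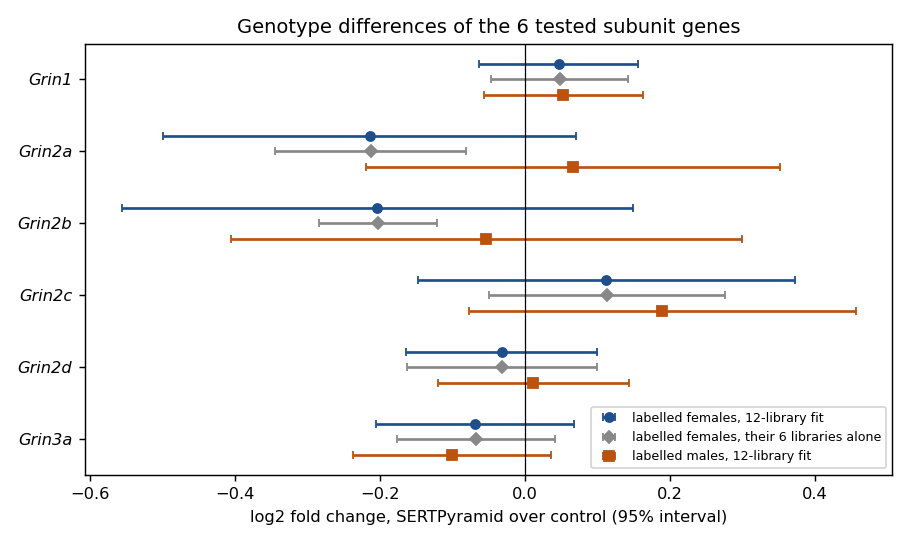
Log2 fold change of SERTPyramid over control with its 95% interval for the 6 tested subunit genes, from the 12-library fit in each labelled sex and from the labelled-female libraries fitted alone. The points of both labelled-female fits coincide, and the interval of Grin2b excludes 0 in the labelled-female libraries alone (-0.28 to -0.12).

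The ratio of Grin2a to Grin2b counts within a library needs no scaling between libraries. Controls labelled female had ratios of 0.0978, 0.0938 and 0.0872, and SERTPyramid libraries labelled female had 0.0938, 0.0905 and 0.0926. Controls labelled male had 0.101, 0.0881 and 0.0934, and SERTPyramid libraries labelled male had 0.107, 0.0909 and 0.109. The groups overlapped in both labelled sexes, and the 2 highest ratios were those of SERTPyramid replicates 3 and 1 labelled male. Per kb of exon the ratio had a median of 0.130, so that the Grin2a level was well below that of Grin2b in every library.

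Mean ratios were 0.0929 ± 0.00538 in controls and 0.0923 ± 0.00169 in SERTPyramid libraries labelled female (SD, n = 3). The log2 difference of -0.01 gave p = 0.90 in a two-sided exact permutation test, where 3 against 3 libraries cannot give less than 0.10. Among libraries labelled male they were 0.0941 ± 0.00638 and 0.103 ± 0.0101 (SD, n = 3), a log2 difference of 0.12 (exact permutation p = 0.30). With genotype permuted within both labelled sexes the mean difference was 0.06 (exact p = 0.35) and the difference between the labelled sexes -0.13 (exact p = 0.28), against a smallest possible 0.005. A change of this maturation readout between genotypes was thus not detected. The direction among libraries labelled female was not fixed, since the log2 difference was 0.03 without control replicate 1.

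Another pair of developmental ratios was set beside it. The ratio of Dlg4 (PSD-95) to Dlg3 (SAP102), scaffolds of mature and immature synapses, was 3.93 to 4.47 over the 12 libraries, and that of the chloride transporters Slc12a5 (KCC2) to Slc12a2 (NKCC1) was 5.97 to 8.58. For Dlg4 to Dlg3 the log2 differences were -0.04 among libraries labelled female (exact permutation p = 0.20) and -0.05 among those labelled male (exact permutation p = 0.60). For Slc12a5 to Slc12a2 they were 0.19 (exact permutation p = 0.20) and -0.03 (exact permutation p = 0.80). None of these differences could pass 0.05, since 3 against 3 libraries cannot give an exact p below 0.10. The labelled-female difference of each ratio was larger than the SD of log2 ratios within its groups (0.02 to 0.03 for Dlg4 to Dlg3, 0.08 to 0.13 for Slc12a5 to Slc12a2). The labelled-female groups still overlapped in both ratios. Control replicate 3 had 4.18 and SERTPyramid replicate 1 had 4.21 for Dlg4 to Dlg3. Control replicate 1 had 7.29 and SERTPyramid replicate 1 had 7.18 for Slc12a5 to Slc12a2.

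**Figure D4:**
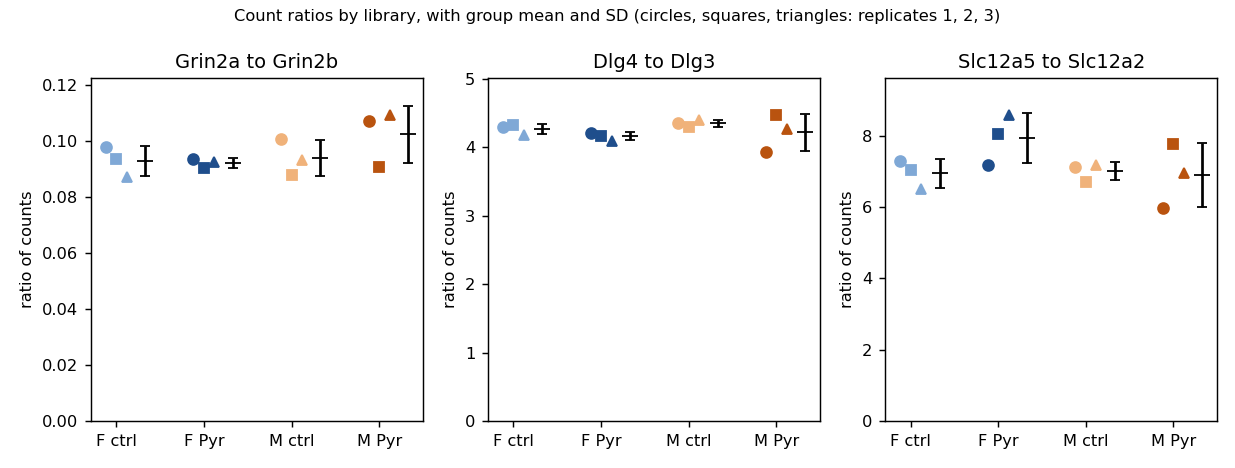
Ratios of counts within each library for Grin2a to Grin2b, Dlg4 to Dlg3 and Slc12a5 to Slc12a2, with the group mean and SD beside the points and axes that start at 0. All genotype groups overlap for Grin2a to Grin2b, and SERTPyramid replicates 1 and 3 labelled male are the highest points (0.107 and 0.109).

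Grin2b was also read against Grin1. The ratio of Grin2b to Grin1 counts was 2.10, 2.13 and 2.16 in controls labelled female and 2.00, 1.83 and 1.56 in SERTPyramid libraries labelled female. These did not overlap, as was so for 18.8% of single tested genes in this comparison. The log2 difference of -0.25 gave an exact permutation p of 0.10, the smallest possible. Any 2 groups of 3 that do not overlap give this p, so it adds nothing to the separation. Libraries labelled male had 1.47, 2.08 and 1.84 in controls and 1.84, 1.87 and 1.26 in SERTPyramid libraries, a log2 difference of -0.12 (exact permutation p = 0.70), which was 0.07 without SERTPyramid replicate 3. Over both labelled sexes the mean difference was -0.18 (exact p = 0.185). Grin2a to Grin1 differed by -0.26 among libraries labelled female (exact permutation p = 0.10) and by 0.00 among those labelled male (exact permutation p = 1).

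The makeup of the GluN2 group was described by each gene's share of the summed GluN2 level per kb. Grin2b made up 56.1% to 67.1% with a median of 63.5%, and Grin2d 20% to 29.4% with a median of 22.7%. Grin2a made up 7.83% to 9.40% with a median of 8.22%, and Grin2c 4.36% to 6.63% with a median of 5.39%. SERTPyramid replicate 3 labelled male had the lowest Grin2b share and the highest Grin2d share of the 12 libraries. The Grin2a share differed between genotypes by -0.37 percentage points among libraries labelled female (exact permutation p = 0.30) and by 0.46 among those labelled male (exact permutation p = 0.40).

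Across the 12 libraries Grin2a and Grin2b varied together. Of 15 pairs among the 6 tested members, only this pair had an adjusted p under 0.05 by the permutation test. Pearson's r was 0.864 (permutation p = 0.0001, adjusted 0.0015) and Spearman's rho 0.888 (permutation p = 0.00024, adjusted 0.0036). It was 0.906 without the 2 libraries farthest from the median of Grin2a, and 0.875 for deviations from the group means. For Grin1 and Grin2b r was -0.425 (permutation p = 0.170, adjusted 0.599, rho = -0.517, adjusted 0.629).

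Both genes have long transcripts, 24060 bases for Grin2b and 14634 for Grin2a, of 45.7% and 44.8% GC. Grin1 and Grin2d have 4276 and 5431 bases, of 59.4% and 65.0% GC. Each library's slope of log2 CPM deviations on transcript length and on GC content was therefore set beside the members, in 18 relations with depth included. Grin2b followed the length slope with r = 0.914 (permutation p = 0.00021, adjusted 0.00189) and rho = 0.685 (permutation p = 0.0161, adjusted 0.0657), and r was 0.610 without the 2 libraries farthest from the median slope. Against the GC slope Grin2b had r = -0.832 (permutation p = 7e-05, adjusted 0.00126) and rho = -0.881 (permutation p = 0.00052, adjusted 0.00936), with r = -0.846 without the 2 farthest. Grin2a had r = 0.786 with the length slope (adjusted permutation p = 0.0121) and -0.778 with the GC slope (adjusted permutation p = 0.0134), with rho of 0.699 (adjusted 0.0657) and -0.776 (adjusted 0.0373). Without the 2 farthest libraries its r was 0.547 and -0.633. None of the other 4 members had an adjusted permutation p under 0.05 with either slope or with total counts.

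The 2 libraries lowest in Grin2b, SERTPyramid replicate 3 and control replicate 1 labelled male, had the lowest length slopes, -0.05 and -0.03 log2 per doubling of length. Genes with transcripts of at least 10 kb, 403 of them with Grin2b left out and Grin2a included, lay on average 0.19 and 0.11 log2 units below their mean in these 2 libraries. Among libraries labelled female the length slope was 0.02, 0.00 and 0.01 in controls and 0.00, -0.00 and -0.01 in SERTPyramid libraries, and the GC slope per 10 percentage points was -0.04, -0.03 and -0.05 in controls and -0.02, 0.03 and 0.03 in SERTPyramid libraries. The GC slopes of these groups did not overlap. The part of RNA or library quality in the Grin2b values was not tested, beyond the offsets given above.

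**Figure D5:**
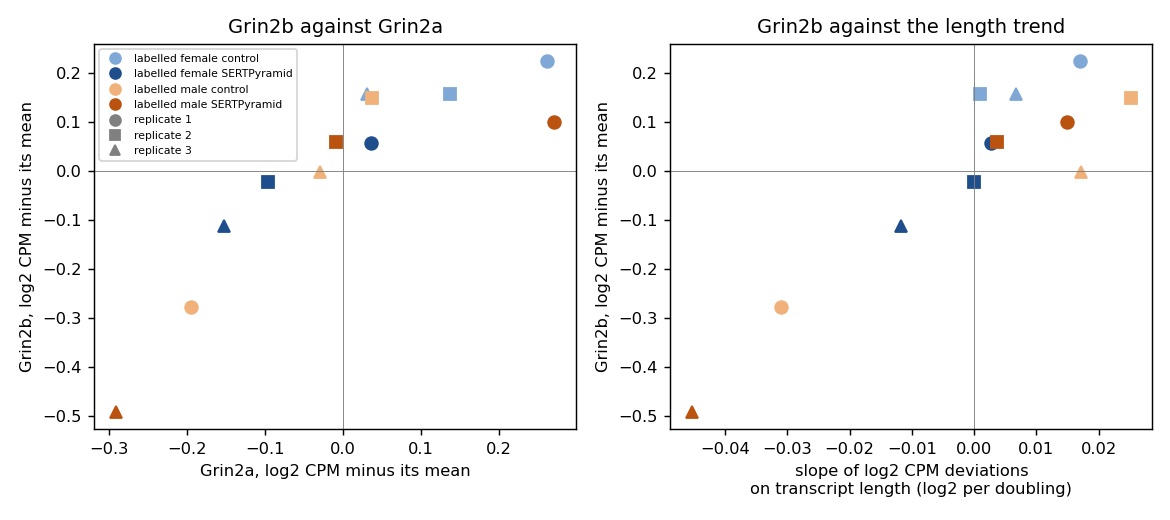
Deviation of Grin2b log2 CPM from its mean over 12 libraries, against that of Grin2a (left) and against each library's slope of log2 CPM deviations on transcript length (right). Pearson's r is 0.864 on the left and 0.914 on the right, and the 2 lowest points are SERTPyramid replicate 3 and control replicate 1 labelled male.

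The genes most like a subunit gene were named by the highest Pearson correlation of log2 CPM over the 12 libraries, among 10397 tested genes with a mean log2 CPM of at least 3. For Grin2b these were the ephrin receptor gene Epha6 (r = 0.974), the adhesion gene Lsamp (0.972), the diacylglycerol kinase gene Dgkh (0.968), Arhgap32 (0.965) and Xkr4 (0.964). For Grin2a they were the zinc-finger gene Zbtb20 (0.947), Slc7a14 (0.943), Gpr63 (0.936), the mineralocorticoid receptor gene Nr3c2 (0.934) and Esyt2 (0.915). For Grin1 they were Adpgk (0.910), the glycolytic aldolase gene Aldoa (0.882), Otub1 (0.877), Dohh (0.822) and Usp20 (0.821). The 99th percentile of r over the same genes was 0.902 for Grin2b, 0.819 for Grin2a and 0.656 for Grin1. The points share their libraries and the trends with length and GC content, so these values describe likeness in these libraries only.

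Genes that act with NMDA receptors were read in 5 lists. In the fit of 12 libraries 0 genes of any list passed the adjusted threshold in either labelled sex. Of 18 trafficking and anchoring genes, all tested, 14 were below 0 among libraries labelled female (median log2 fold change -0.04) and 15 among those labelled male (median -0.05), where the medians over all genes were -0.00 and 0.00. Of 16 tested kinases and phosphatases that act on the receptor, 12 lay below 0 among libraries labelled female (median -0.04) and 6 among those labelled male (median 0.01). Of 15 calcium effectors 7 and 12 lay below 0 (medians 0.01 and -0.03). Of 12 tested genes of co-agonist supply and removal 5 and 6 lay below 0 (medians 0.05 and 0.01), and of 12 transcriptional regulators 9 and 5 (medians -0.01 and 0.03).

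With only the 6 libraries labelled female in the fit, listed genes called included Cask, Camk2d and Tspyl2. Cask, a scaffold kinase of the motor complex that carries NMDA receptors, had 135, 145 and 142 CPM in controls and 129, 129 and 127 CPM in SERTPyramid libraries (log2 fold change -0.15 ± 0.04 SE, adjusted p = 0.0426 by edgeR). Camk2d, a calcium/calmodulin-dependent kinase, had 76.7, 77.7 and 74.5 CPM against 71.9, 68.8 and 65.0 CPM (-0.17 ± 0.04 SE, adjusted p = 0.0304 by edgeR). Tspyl2, a chromatin factor known to act on NMDA receptor gene promoters, was higher, with 53.0, 49.1 and 54.6 CPM against 60.5, 58.0 and 63.2 CPM (0.20 ± 0.05 SE, adjusted p = 0.0311 by edgeR). These 3 calls were lost with GC offsets, where the log2 fold changes were -0.13 for Cask, -0.13 for Camk2d and 0.17 for Tspyl2 (adjusted p = 0.112, 0.131 and 0.0838 by edgeR). They were also lost in several fits that left out 1 library. DESeq2 did not call Camk2d (adjusted p = 0.0647) or Tspyl2 (adjusted p = 0.0672), and Cask was lost with length offsets (adjusted p = 0.175 by edgeR).

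In the 12-library fit these 3 were among the listed genes with the smallest p in libraries labelled female, with Lin7c (-0.10), Neto1 (-0.13), the calcineurin genes Ppp3ca (-0.12) and Ppp3cb (-0.11), and the glycine transporter gene Slc6a9 (0.13), at adjusted p of at least 0.530 by edgeR. Among libraries labelled male the smallest p belonged to Camk2g (-0.12) and Akap9 (-0.15), each with an adjusted p of 0.999 by edgeR. Slc6a9 had -0.12 there.

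Summed markers of some other cell types also did not overlap between the labelled-female groups in which Grin2b did not overlap. For scale, 18.8% of single tested genes had groups that did not overlap in this comparison. Summed levels of 5 dentate granule markers were 326 to 393 CPM in controls and 291 to 314 CPM in SERTPyramid libraries, and those of 5 immature-neuron markers 1248 to 1264 and 1106 to 1203 CPM. Red blood cell markers, 4 genes, had 52.8 to 60.7 and 39.4 to 48.6 CPM, while 4 oligodendrocyte precursor markers had 367 to 374 and 388 to 400.4 CPM. Those of CA1 pyramidal neurons (744 to 775 and 718 to 825 CPM) and of CA3 and CA2 pyramidal neurons (159 to 166 and 157 to 167 CPM) overlapped. Every other marker list read overlapped in these labelled-female groups too. Single genes did not all follow the sums that were apart, in the edgeR fit of the labelled-female libraries alone. Eomes had a log2 fold change of 0.05, where the other immature-neuron markers had -0.24 to -0.10. Pdgfra had -0.02, where the other oligodendrocyte precursor markers had 0.07 to 0.22. Among libraries labelled male the dentate granule sums overlapped (299 to 341 and 326 to 350 CPM). Those of CA3 and CA2 pyramidal neurons did not (153.3 to 157.6 and 158.3 to 171.3 CPM). Over the 12 libraries r with Grin2b was 0.55 for dentate granule and 0.128 for immature-neuron markers. It was 0.339 for red blood cell and 0.1 for oligodendrocyte precursor markers. Over all marker lists r ran from -0.534 for CA1 pyramidal to 0.619 for thalamus markers. For Cajal-Retzius markers it was 0.569 and for astrocyte markers 0.51, so dentate granule markers did not stand out. The part of these cell types in the Grin2b difference was not tested. In tissue counts fewer cells of a type and less RNA per cell cannot be told apart.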

How the data were processed

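The values are raw counts per Ensembl gene in the table deposited by the authors, for 12 libraries. Per the labels' protocols, RNA came from a Trizol extraction with column cleanup, and each library took 250 ng of it through TruSeq RNA v2, a kit without strand marking. The genome build is mm10, per the submitters' processing notes. Aligner, counting settings and annotation remain not given in the sources used here. All 12 columns were mapped to samples by title, 0 entries named no gene, and no 2 libraries of a group agreed within sampling noise (chi-square over degrees of freedom 2.52 to 13.8).

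CPM used library totals. Genes kept by filterByExpr were scaled by TMM and tested with edgeR 4.0.16 (quasi-likelihood, robust) in R 4.3.3, in a single fit of 4 groups and 12 libraries. Benjamini-Hochberg adjustment ran over all 17631 genes, with a threshold of 0.05, and each SE was derived from the fold change and its F statistic. Alternatives were DESeq2 1.42.0, limma voom 3.58.1 with quality weights, 1 surrogate variable (sva 3.50.0), RLE scaling, other filters, a replicate block, GC offsets, the compared groups alone, Y-linked expression as a covariate, and left-out libraries. Length offsets, and checks of the labelled-female fit and of the Grin2b to Grin1 and reference ratios, were chosen after seeing the data. The code was tested on simulated data.

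Ratios were tested by exact permutation of genotype, and correlations by 100000 permutations (scipy 1.17.1). Exon lengths, coordinates and GC content came from GENCODE M21 (GRCm38), matched for 52487 genes.

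The members and lists were chosen with earlier results of these data known. The rule named all 7 members, the genes that overlap them, listed genes past the threshold in any fit, up to 3 others per list by p, and the 5 genes most like Grin1, Grin2a and Grin2b, passing over predicted gene models; 1 listed gene is not reported here. Of the overlapping genes those sharing under 150 exon bases are not described. Pairing of same-numbered libraries was checked from the correlation of their deviations around group means.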

Additional observations from a re-analysis of the deposited data

How the results depend on the processing

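The 0 called genes of the 12-library fits became 103 among libraries labelled female, 5 among those labelled male, 14 for the interaction and 66 for the average when low counts were not filtered. DESeq2 called 1 gene among libraries labelled female and 1 for the interaction. Leaving out 1 library gave 0 to 144 genes for the average, with 144 without SERTPyramid replicate 2 labelled male. None of these fits called a subunit gene, and only the labelled-female libraries alone did, with 415 genes and 1 member. In that fit 657 genes and 2 members were called without a filter, 2 members with DESeq2 and 0 members with length offsets. Leaving out 1 library there gave 136 genes (without SERTPyramid replicate 2) to 464 (without SERTPyramid replicate 1) and 0 to 2 members.

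Same-numbered libraries showed little shared deviation (18 pairs, r of -0.23 to 0.23, 2 of them over 0.1). Deviations around means of 3 libraries cannot exclude a pairing by number. The replicate block called 0 genes in the 12-library fits, with Grin2b at -0.21 among libraries labelled female and -0.07 among those labelled male. In the labelled-female libraries alone the replicate block called 689 genes and 2 members, Grin2b (-0.20) and Grin2a (-0.21). For the Grin2a to Grin2b ratio, exchanging labels within the replicate block left the mean difference at 0.06 (exact permutation p = 0.28).

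Small differences that did not pass the test changed sign. With 1 surrogate variable Grin2d and Grin3a were 0.0098 and 0.0050 among libraries labelled female. Grin1 was -0.010 there with GC offsets, and -0.0092 with GC offsets and the replicate block. Grin2d among libraries labelled male was -0.067 with GC offsets, and -0.068 with these and the replicate block. With 1 library left out, Grin1 ranged from -0.0064 to 0.089 and Grin2d from -0.082 to 0.035 among libraries labelled female. Among those labelled male Grin2a ranged from -0.084 to 0.20, Grin2b from -0.16 to 0.11, Grin2c from -0.011 to 0.29 and Grin2d from -0.034 to 0.047. The log2 ratio of Grin2a to Grin2b ranged from -0.054 to 0.029 among libraries labelled female, and it was 0.029 without control replicate 1 of both labelled sexes. Among libraries labelled male the log2 ratios ranged from -0.26 to 0.067 for Grin2b to Grin1, from -0.087 to 0.0052 for Dlg4 to Dlg3 and from -0.12 to 0.069 for Slc12a5 to Slc12a2. The causes were not tested.

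Apart from Grin3b every member had at least 259 counts in each library. Grin3b, at 4 to 14 counts, was too low to test. In the exact tests of ratios, 3 against 3 pools cannot give a p below 0.10.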
